A study of Mus musculus with 8 samples.

Results

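Periostin (Postn) and 7 further genes that mark activated, matrix-producing or contractile fibroblasts were followed through the ischemic mouse cortex: Cthrc1, Acta2, Tagln, Myl9, Fap, Lrrc15 and Fn1. The set was chosen by gene name, and each of the 8 names matched a single gene among the 21848 listed. Transcripts were counted by single-cell RNA sequencing of the injury site 6 days after photothrombosis (PT), a light-induced clot of the cortical vessels, in 4 control mice given saline and 4 fibrinogen-depleted mice given 2.4 U of ancrod per day. Ancrod is a snake venom enzyme that consumes circulating fibrinogen. It was delivered by a pump placed under the skin 2 days before PT. The saline mice carried the same pump and had the same PT of the right sensorimotor cortex, with a region 4 mm across illuminated. By the methods of the study, the piece taken held the injury site together with spared tissue around it. Cells of the lesion below come from this whole piece. The labels list every mouse as a Bl/J6 female, whereas the methods of the study name C57BL/6N mice of either sex; the meninges were taken off, and no cell type was enriched. Each mouse gave 1 library, with replicates 1 to 3 of both groups in batch 1 and replicate 4 of both groups in batch 2. The libraries carry no measure of plasma fibrinogen, and no uninjured cortex was analysed here.

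Myofibroblasts arise when tissue fibroblasts or related perivascular cells switch on the contractile proteins of smooth muscle while laying down matrix. In scars, fibronectin forms an early provisional matrix, periostin and CTHRC1 are secreted by activated fibroblasts and act on collagen assembly and cell adhesion, and smooth muscle actin fibers let the cells pull on that matrix. In the brain such cells are thought to come mainly from perivascular fibroblasts (PVFs), which lie around larger vessels, and the contractile genes are also used at rest by vascular smooth muscle cells and some pericytes.

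The 8 genes lie on 7 chromosomes of the mouse genome (GRCm39), Myl9 and Fap both being on chromosome 2. Postn spans chr3:54268501-54298471 on the plus strand, Acta2 spans chr19:34217737-34232990 on the minus strand, and Fn1 spans chr1:71624673-71692419 on the minus strand. All counts came from the 3′ ends of transcripts, so splice forms of Fn1 and Postn were not distinguished.

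The promoters of the contractile members are shown because these genes moved together from cell to cell and are classical targets of serum response factor, a transcription factor that binds the CArG box (CC, a run of A and T, GG). The RefSeq promoter table (GRCm38.p6) held 4 of the members, Postn, Acta2, Myl9 and Lrrc15, with a pair of start sites for Postn. The 250 bases before the start are printed 5′ to 3′ on the gene's strand for Acta2 (chr19:34255374-34255623, minus strand), Myl9 (chr2:156775214-156775463, plus strand) and the downstream Postn start (chr3:54360857-54361106, plus strand). Capitals mark CArG boxes with at most 1 other base in the A and T run, the motif CATTCC or its reverse complement, and the motif TATAAA or its reverse complement.
Acta2: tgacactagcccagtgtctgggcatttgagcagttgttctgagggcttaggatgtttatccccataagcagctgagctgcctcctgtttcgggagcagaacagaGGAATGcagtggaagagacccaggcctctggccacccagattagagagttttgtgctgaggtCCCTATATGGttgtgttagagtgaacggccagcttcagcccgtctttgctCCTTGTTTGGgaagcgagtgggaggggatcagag
Myl9: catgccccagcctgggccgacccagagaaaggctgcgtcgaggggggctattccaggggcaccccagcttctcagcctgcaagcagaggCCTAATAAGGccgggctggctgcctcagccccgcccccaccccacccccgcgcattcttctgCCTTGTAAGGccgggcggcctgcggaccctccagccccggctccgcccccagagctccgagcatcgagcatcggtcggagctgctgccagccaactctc
Postn: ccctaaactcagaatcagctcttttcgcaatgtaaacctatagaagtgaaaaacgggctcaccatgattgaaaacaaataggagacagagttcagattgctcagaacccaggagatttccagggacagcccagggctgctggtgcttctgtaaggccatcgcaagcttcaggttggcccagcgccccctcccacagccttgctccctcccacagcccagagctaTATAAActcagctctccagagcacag
Acta2 held 2 such CArG boxes, which began 84 and 34 bases before the start, and Myl9 also held 2, which began 161 and 99 bases before it. Neither Postn window and no Lrrc15 window held one. Among all 32851 promoter windows of this length, 8.59% held at least 1 such box and 1.47% held one with an unbroken A and T run, as the upstream Myl9 box has. CATTCC was found in 12.6% of the windows and TATAAA in 12.4%. A match describes the letters only and is not evidence of binding.

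After removal of predicted doublets 44072 cells remained, each with at least 2000 unique molecular identifiers (UMIs, counts of single captured transcripts) and under 20% of them mitochondrial. Libraries held 97861434 to 122758649 UMIs in control mice and 126682918 to 142139441 in fibrinogen-depleted mice, so the groups did not overlap in total depth. The median per kept droplet overlapped, at 10653 to 14406 and 13930 to 17575 UMIs. Values are given as counts per 1000000 UMIs (CPM) of the cells concerned. Any pair of libraries shared 3 to 15 cell barcodes. Cells were clustered without the 8 genes and named after marker genes, which gave 2186 fibroblast-like, 1225 pericyte-like, 216 smooth muscle-like, 6993 endothelial-like and 2777 macrophage-like cells, while 6509 cells stayed unnamed. Unnamed cluster 45, with 135 cells of which 26.7% came from control mice, had fibroblast genes such as Lum and Dcn among its leading genes. Unnamed cluster 29, with 505 cells, was led by pericyte genes such as Rgs5 and Vtn. The fibroblast-like and pericyte-like classes can thus leave out some such cells. The 9 fibroblast markers summed to between 23912 and 36589 CPM in the fibroblast-like cells of each mouse. In the same cells the 8 macrophage markers summed to 4830 to 7014 CPM in control and 3655 to 5482 CPM in fibrinogen-depleted mice. The source of these macrophage transcripts was not tested. Saline replicate 3 contributed only 36 fibroblast-like cells, so its fibroblast values rest on few cells.

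Postn and Lrrc15 were chiefly fibroblast transcripts in the lesion of every mouse, and Cthrc1 in all but 1. Fibroblast-like cells made up 4.96% of all cells and gave 75.3% to 96.6% of the Postn UMIs and at least 96.1% of the Lrrc15 UMIs of a mouse. Their median depth of 43025 UMIs was the highest of the named classes, so their share of all UMIs was above 4.96%. For Cthrc1 the share was 39.9% in saline replicate 3, which had few fibroblast-like cells, and up to 90.9% in the other mice. Classes were made from these same cells, so differences between classes are descriptions without a test.

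Postn averaged 401 ± 109 CPM (SD, n = 8 mice) in fibroblast-like cells and 102 ± 33.4 CPM in pericyte-like cells. The lowest fibroblast value was 207 CPM and the highest pericyte value 180 CPM, so the mice did not overlap between the 2 classes. The other named classes averaged at most 1.92 CPM, and smooth muscle-like cells held a single Postn UMI over all 8 mice.

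Cthrc1, a secreted collagen triple helix repeat protein, averaged 623 ± 109 CPM in fibroblast-like cells and 288 ± 41.2 CPM in pericyte-like cells, again without overlap between mice. Endothelial-like cells followed at 39.9 ± 7.20 CPM and astrocyte-like cells at 27.1 ± 5.92 CPM, and the mice of these last classes overlapped. Smooth muscle-like cells held 11 Cthrc1 UMIs in all.

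Lrrc15, a membrane protein used as a marker of matrix-producing fibroblasts in tumors, averaged 22.8 ± 15.8 CPM in fibroblast-like cells. In pericyte-like and smooth muscle-like cells no Lrrc15 UMI was counted in any mouse. Fap, a membrane serine protease of activated stroma, had a different order. It was highest in pericyte-like cells at 146 ± 23.8 CPM, above fibroblast-like cells at 44.6 ± 11.7 CPM in every mouse, and fibroblast-like cells overlapped with neuron-like cells at 27.4 ± 7.36 CPM. Fibroblast-like cells gave 12.1% to 72.2% of the Fap UMIs of a mouse.

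The contractile members had their highest CPM in smooth muscle-like cells. Acta2, smooth muscle alpha-actin, averaged 12342 ± 2209 CPM in smooth muscle-like cells, 458 ± 153 CPM in pericyte-like cells and 325 ± 278 CPM in fibroblast-like cells, and mice of the last 2 classes overlapped. Tagln, an actin-binding protein also called SM22, averaged 9767 ± 1556 CPM, 263 ± 96.1 CPM and 209 ± 195 CPM in the same order, with the same overlap. Myl9, a regulatory light chain of myosin, fell from 3645 ± 591 CPM in smooth muscle-like cells to 1113 ± 107 CPM in pericyte-like cells and 75.8 ± 36.4 CPM in fibroblast-like cells, and here all 3 classes were apart in every mouse. A small ependymal-like class, with 48 of its 53 cells from saline replicate 4, also carried Acta2 at 554 CPM in that mouse.

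Fn1, fibronectin, was the most widely expressed member. It averaged 2636 ± 154 CPM in fibroblast-like cells, 1510 ± 131 CPM in endothelial-like cells and 711 ± 160 CPM in monocyte-like cells, each class lying below the one before in every mouse. Smooth muscle-like, pericyte-like and macrophage-like cells followed at 209 ± 127, 209 ± 117 and 142 ± 30.3 CPM and overlapped with each other.

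**Figure D1:**
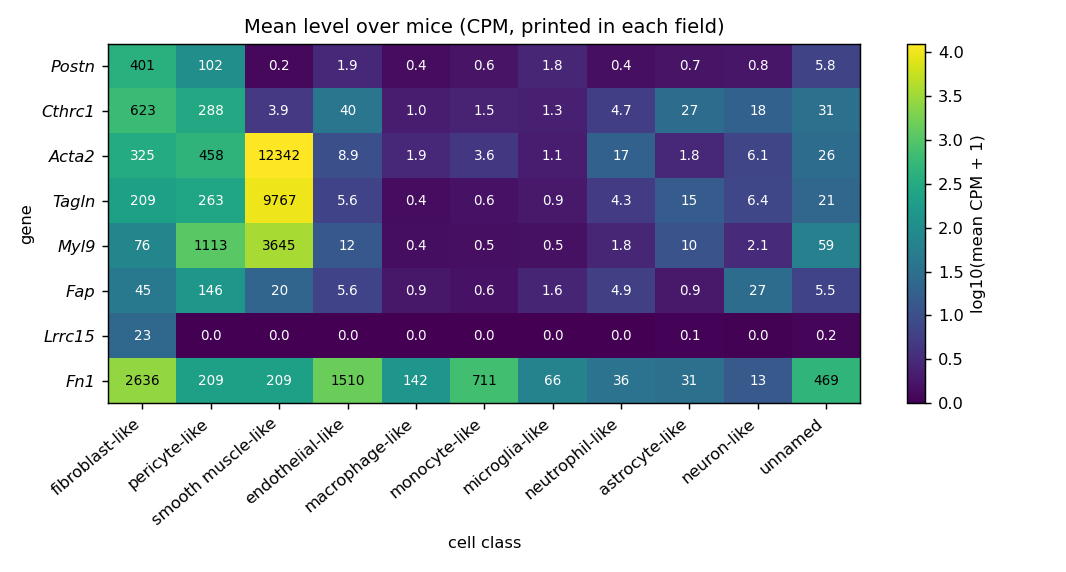
Mean level of each gene (rows) in each cell class (columns), with color on a log10 scale of CPM plus 1 and the mean CPM over mice printed in each field. Postn, Cthrc1 and Lrrc15 peak in fibroblast-like cells at 401, 623 and 22.8 CPM, Fap peaks in pericyte-like cells at 146 CPM, and Acta2, Tagln and Myl9 peak in smooth muscle-like cells.

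At a fixed depth of 5000 UMIs per cell, which left out 42 shallower fibroblast-like cells, 62.4% of fibroblast-like cells held a Postn UMI and 31.4% held an Acta2 UMI. The shares without thinning were 80.4% and 53.3%. In microglia-like cells, which are not known to make either protein, the thinned shares were 0.746% and 0.554%, with a median depth of 14504 UMIs against 43025 in fibroblast-like cells. Of the thinned fibroblast-like cells 21.0% held UMIs of both genes, 10.4% held Acta2 without Postn and 41.4% held Postn without Acta2. Postn was thus found in many cells without detected Acta2.

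The fibroblast-like cells fell into 4 clusters that carried the genes unevenly. Cluster 19, led by Lum and Dcn and highest in the receptor gene Pdgfra at 363 CPM, held 889 cells with 608 CPM of Postn but only 115 CPM of Acta2. Cluster 27, led by collagen genes such as Col1a1, Col8a1 and Col12a1, held 668 cells with 440.99 CPM of Postn and 603 CPM of Acta2. Cluster 37, led by collagen genes and by division genes such as Birc5 and Ube2c, held 284 cells with 850 CPM of Acta2, 531 CPM of Tagln and 272 CPM of Postn. These sums pool the mice, and only 19.7% of the cells of cluster 37 came from control mice. By the median over mice, Acta2 was higher in cluster 37 than in cluster 27 in fibrinogen-depleted mice (858 against 554 CPM). In control mice it was lower (195 against 323 CPM), where cluster 37 had 3 mice with at least 10 cells and cluster 27 had 4.

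Cluster 34, led by Penk, Ccn3 and Slc4a10 and with no fibroblast marker among its 10 leading genes, stood apart. Its 345 cells carried 17.3 CPM of Postn, 13.9 CPM of Acta2 and 0.585 CPM of Lrrc15, although Fn1 stood at 2941 CPM, between its levels in clusters 37 and 27 at 2498 and 3183 CPM. Only 3 control mice had at least 10 cells in cluster 34, against 4 in cluster 19. The median over these control mice was 128 CPM for Cthrc1 in cluster 34, below the 547 CPM of cluster 19. It was 48.7 CPM for Tagln and 71.5 CPM for Myl9, above the 21.9 and 29.99 CPM of cluster 19. Over fibrinogen-depleted mice, Tagln and Myl9 were lower in cluster 34, at medians of 59.7 and 56.0 CPM against 167 and 75.3 CPM. Since clusters were drawn from the same cells, these differences carry no test.

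**Figure D2:**
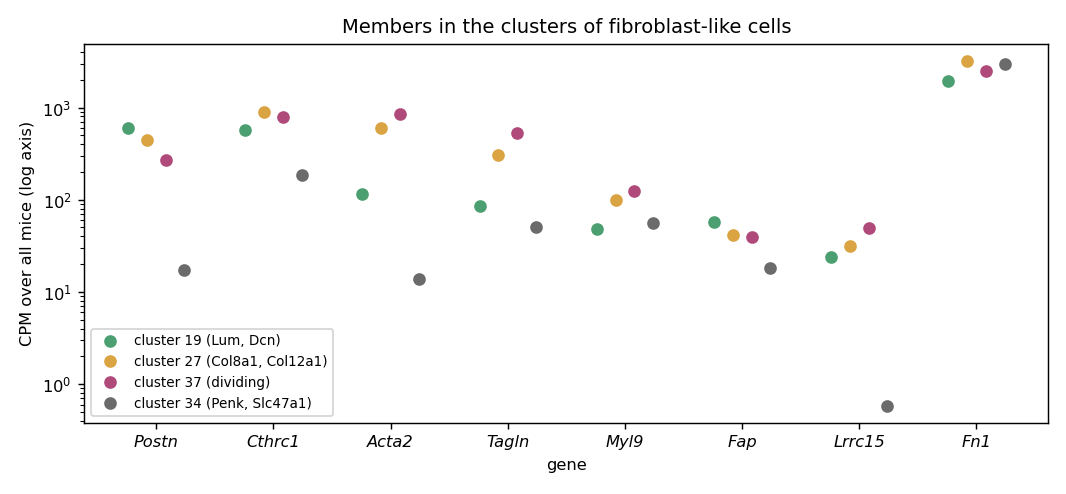
CPM of each gene over all mice, on a log axis, in the 4 clusters of fibroblast-like cells, 1 point per cluster. Cluster 19 has the most Postn (608 CPM), clusters 27 and 37 the most Acta2 (603 and 850 CPM), and cluster 34 is lowest for Postn, Acta2 and Lrrc15 while its Fn1 stays at 2941 CPM.

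From cell to cell the contractile members moved together and apart from periostin. Over fibroblast-like cells, the Pearson correlation of log levels, taken within each of the 8 mice and averaged, was 0.70 for Acta2 with Tagln, 0.62 for Tagln with Myl9 and 0.57 for Acta2 with Myl9. Postn correlated with Cthrc1 at 0.40 and with Lrrc15 at 0.28, but with Acta2 at 0.06, with Tagln at -0.10 and with Fn1 at 0.02. Cthrc1 stood between both sets, at 0.40 with Acta2 as well. These cells share libraries and differ in depth, and no p-value is given.

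Among 11416 genes found in at least 10% of fibroblast-like cells, the ones most like Postn were Col4a1 and Col4a2 (0.58 each), which encode basement membrane collagen, Lamb1 (0.56), Pltp (0.56) and Mfap4 (0.55). Those most like Acta2 were Tagln (0.70), the tropomyosin genes Tpm2 (0.64) and Tpm4 (0.61), Myl9 (0.57) and Lgals1 (0.57). Cthrc1 was followed most closely by the collagen chaperone gene Serpinh1 (0.66), Rcn3 (0.62), Col1a1 (0.60), S100a6 (0.59) and Col5a1 (0.59). For Fn1 the leading genes were Mgp (0.49), Col12a1 (0.45), Tmsb4x (0.44), Col1a2 (0.44) and Cdh11 (0.42).

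To ask whether fibrinogen depletion changed these genes within fibroblasts, the summed UMIs of each class in each mouse were compared by the quasi-likelihood test of edgeR, and p-values were adjusted over all genes tested. None of the 8 members passed an adjusted p of 0.05 in fibroblast-like cells, where 1 of 12769 genes was called (0.00783%), and it was not a member. Of these genes 1884 were below 0.05 before adjustment, among them 6 of the members, and DESeq2 called 165 genes and no member. For no member were the 2 groups fully apart, while 3.56% of all genes were higher and 3.74% lower in every fibrinogen-depleted mouse.

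Postn was 543, 548, 382 and 404 CPM in control replicates 1 to 4 and 347, 207, 371 and 403 CPM in fibrinogen-depleted replicates 1 to 4. The lowest value was in ancrod replicate 2, and the groups overlapped between 382 and 403 CPM. The means were 469 ± 88.5 and 332 ± 86.3 CPM (SD, n = 4), a log2 difference of -0.49 ± 0.21 (SE, adjusted p = 0.329, edgeR). Leaving out a mouse gave -0.62 to -0.30, with adjusted p between 0.309 and 0.619 (edgeR).

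Acta2 was 135, 237, 176 and 73.1 CPM in control mice and 326, 579, 179 and 894 CPM in fibrinogen-depleted mice. Ancrod replicate 3 lay within the control range, and the other 3 lay above it. The log2 difference was 1.69 ± 0.50 (adjusted p = 0.241, edgeR).

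Tagln was 73.6, 78.6, 159 and 41.7 CPM in control mice and 187, 510, 102 and 520 CPM in fibrinogen-depleted mice, with the same mouse, ancrod replicate 3, inside the control range. Its log2 difference was 1.97 ± 0.56 (adjusted p = 0.240, edgeR). Myl9 averaged 55.3 ± 17.3 and 96.4 ± 40.8 CPM, with a log2 difference of 0.86 ± 0.33 (adjusted p = 0.299, edgeR).

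In batch 1 alone, with 3 mice a group, the log2 difference of Acta2 was 0.95 (adjusted p = 0.476, edgeR) and that of Tagln 1.37 (adjusted p = 0.476, edgeR). Batch 2 holds 1 mouse a group and allows no test of its own. Without ancrod replicate 3 the values were 1.98 and 2.28, with adjusted p = 0.0841 and 0.0796 (edgeR).

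The 9 smooth muscle markers summed to 52.2 to 74.7 CPM in control and 62.0, 113, 57.1 and 128 CPM in fibrinogen-depleted fibroblast-like cells, against 7999 to 12816 CPM over both groups in smooth muscle-like cells. The highest sums were in ancrod replicates 2 and 4, the mice with the highest Acta2 and Tagln. The 8 pericyte markers summed to 162 to 399 and 183 to 284 CPM. Up to 2 of the smooth muscle markers were at 0 in a control mouse and none in a fibrinogen-depleted mouse, and the part of these cells in the Acta2 values was not tested.

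Lrrc15 was 15.3, 16.6, 14.3 and 13.2 CPM in control mice and 17.7, 31.5, 14.999 and 59.1 CPM in fibrinogen-depleted mice. The control mice were close together, and the fibrinogen-depleted mice spread widely, with ancrod replicate 4 highest. The log2 difference was 1.08 ± 0.43 (adjusted p = 0.305, edgeR), it was 0.40 in batch 1 alone (adjusted p = 0.643, edgeR) and 0.47 without ancrod replicate 4 (adjusted p = 0.480, edgeR).

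Cthrc1 averaged 567 ± 98.7 CPM in control and 679 ± 97.0 CPM in fibrinogen-depleted mice, a log2 difference of 0.27 ± 0.16 (adjusted p = 0.453, edgeR). Under other processing settings or with a mouse left out it lay between 0.07 and 0.41 and was never called. Fap averaged 51.0 ± 14.0 and 38.1 ± 3.48 CPM, a log2 difference of -0.44 ± 0.16 (adjusted p = 0.289, edgeR). Fn1 was at 2652 ± 169 and 2621 ± 161 CPM, and its log2 difference of -0.01 ± 0.09 was smaller than its own error (adjusted p = 0.974, edgeR).

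**Figure D3:**
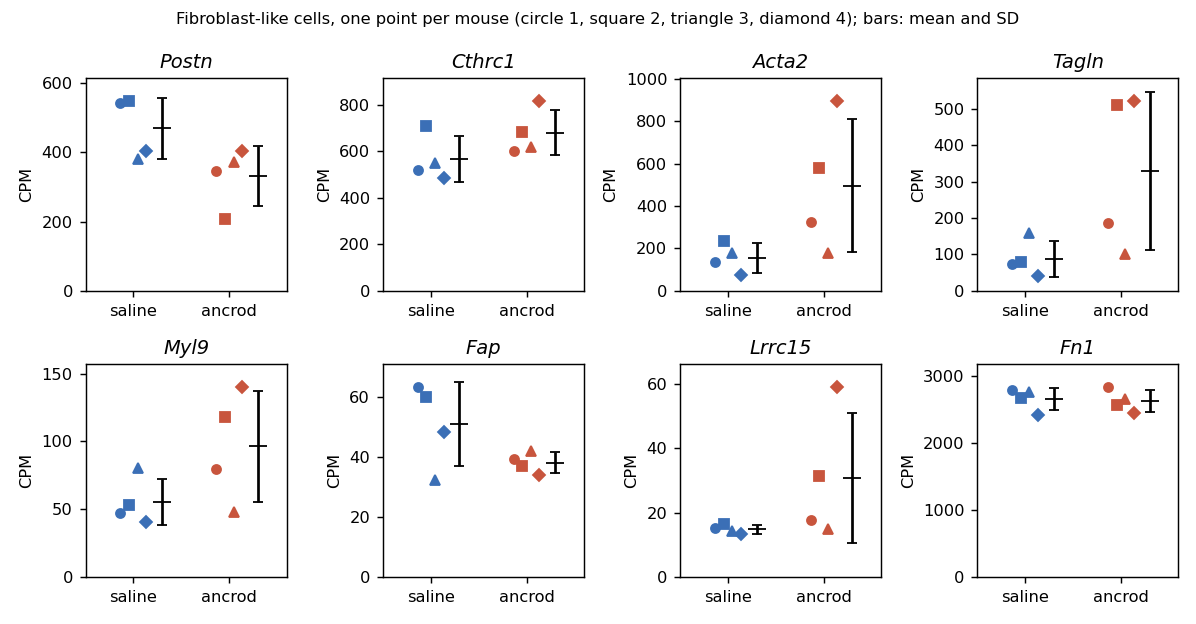
CPM of each gene in fibroblast-like cells, 1 point per mouse with the symbol giving the replicate, and the mean and SD of each group of 4 as a bar. Acta2, Tagln and Myl9 are highest in ancrod replicates 2 and 4 and within the control range in ancrod replicate 3, Postn is lowest in ancrod replicate 2 at 207 CPM, and Fn1 differs little.

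Within clusters the levels were as follows. In cluster 19, Acta2 was between 6.31 and 64.8 CPM in control mice and between 54.4 and 255 CPM in fibrinogen-depleted mice, and Postn was between 568 and 722 CPM and between 448 and 623 CPM. In cluster 27, Acta2 ranged from 134 to 409 CPM and from 381 to 1163 CPM. In cluster 37 only mice with at least 10 cells were compared, which left 3 control mice at 131 to 538 CPM against 4 fibrinogen-depleted mice at 349 to 1313 CPM. Acta2 overlapped between the groups in each of these 3 clusters. Tagln was 16.8 to 50.9 CPM in control and 46.8 to 218 CPM in fibrinogen-depleted mice in cluster 19, and 75.6 to 270 and 180 to 587 CPM in cluster 27. Lrrc15 was 17.3 to 29.4 and 23.1 to 31.9 CPM in cluster 19, and 4.29 to 17.1 and 9.70 to 72.8 CPM in cluster 27, so both genes overlapped between the groups in both clusters. In cluster 37, Tagln (39.1 to 140 CPM in control and 141 to 892 CPM in fibrinogen-depleted mice) and Lrrc15 (8.91 to 11.1 and 14.2 to 86.1 CPM) are given as values only, without a test. Cluster 19 held 27.8% to 57.0% of the fibroblast-like cells of a control mouse and 22.5% to 45.7% of those of a fibrinogen-depleted mouse, and the dividing cluster 37 held 7.32% to 10.3% and 8.61% to 22.3%, so the groups overlapped for both.

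The pairing of Acta2 and Postn was also read in cells thinned to 5000 UMIs. Fibroblast-like cells with Acta2 but no Postn were 4.74% to 10.0% of the cells in control mice and 7.77% to 18.3% in fibrinogen-depleted mice. Cells with Postn but no Acta2 were 47.2% to 57.3% in control mice and 24.0% to 45.4% in fibrinogen-depleted mice. The groups did not overlap for this share, for which no test was run. Its lowest control value, 47.2%, came from saline replicate 3 with only 36 cells. The groups overlapped for cells with Acta2 but no Postn, for cells with both genes and for cells with neither. How often other pairs of genes part the groups in this way was not tested.

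The wider programs around the members were read from lists of genes for scar matrix, the contractile apparatus, transforming growth factor beta signaling, and integrin receptors with matrix cross-linkers. None of their genes passed the test in fibroblast-like cells. The lists leave out the members themselves and were chosen with earlier results of these data known. Genes of a list can vary together, so the counts below are no test. For the contractile apparatus 21 of 24 genes were tested and 20 were fitted higher in fibrinogen-depleted mice. The median log2 difference of the list was 0.28 against -0.01 over all genes, of which 48.9% were higher. Of the 21 genes, 2 lay higher in every fibrinogen-depleted mouse than in any control mouse, as did 3.56% of all genes. The ends of that list were Actg2, the actin of visceral smooth muscle (2.71, adjusted p = 0.241, edgeR), and Csrp1 (0.66, adjusted p = 0.239, edgeR) at the top, with Mrtfb (0.00) and Mrtfa (-0.14), coactivators of serum response factor, at the bottom.

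Of the 22 scar matrix genes 8 were higher and 14 lower, with a median of -0.04. Fmod (1.30) and the glycoprotein gene Tnc (1.09) stood at the top of this list and Tgfbi (-0.53) and Col8a1 (-0.40) at the bottom. For the 19 signaling genes, 10 higher and 9 lower, the extremes were Inhba (1.09) and Ltbp2 (0.27) against the receptor gene Tgfbr2 (-0.35) and Pmepa1 (-0.27), with a median of 0.05. The 23 genes on the integrin and cross-linker list, 14 higher and 9 lower, had a median of 0.06. They ran from Dpp4 (1.18), which encodes neither an integrin nor a cross-linker, and Itga4 (0.66) to Loxl1 (-0.39) and Itga8 (-0.51). The adjusted p of each of these 12 genes lay between 0.249 and 0.680 (edgeR).

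Outside fibroblasts, Fn1 in pericyte-like cells was the one call among the members in the 4 further classes tested. In pericyte-like cells it was 149, 143, 109 and 106 CPM in control replicates 1 to 4 and 447, 270, 171 and 278 CPM in fibrinogen-depleted replicates 1 to 4. Every fibrinogen-depleted mouse lay above every control mouse, with ancrod replicate 1 the highest. In pericyte-like cells thinned to 5000 UMIs, 16.1% to 24.0% held an Fn1 UMI in control and 23.1% to 50.0% in fibrinogen-depleted mice, so this share overlapped. Before thinning, the median depth of these cells was 5045 to 5390 UMIs in control and 4692 to 7248 UMIs in fibrinogen-depleted mice. Fn1 rose by 1.25 ± 0.23 on the log2 scale (SE, adjusted p = 0.0285, edgeR), with means of 126 ± 22.4 and 292 ± 114 CPM (SD, n = 4). It was 1 of 33 genes called among 9145 tested (0.361%), and DESeq2 called Fn1 among 84. The call was lost in batch 1 alone (adjusted p = 0.0687, edgeR), with cells of at least 5000 UMIs (adjusted p = 0.0578, edgeR), with under 10% mitochondrial UMIs (adjusted p = 0.0536, edgeR), and without saline replicate 2, 3 or 4 or ancrod replicate 2 (adjusted p up to 0.0935, edgeR), while the log2 difference stayed between 0.95 and 1.44.

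Several other values moved with Fn1 in the pericyte-like cells. The 9 fibroblast markers summed to 928 to 1094 CPM in control and 1259 to 1860 CPM in fibrinogen-depleted pericyte-like cells, so the groups did not overlap. The 8 macrophage markers summed to 444 to 715 and 628 to 1077 CPM, with overlap. The endothelial markers overlapped, at 272 to 394 and 301 to 396 CPM. Were all Col1a1 UMIs in these cells carried over from fibroblast-like cells of the same mouse, the Fn1 carried with them would amount to 2.95 to 7.88 CPM in control and 4.55 to 32.2 CPM in fibrinogen-depleted mice. The like values from the monocyte gene Plac8 were 3.14 to 18.2 and 12.3 to 46.4 CPM, and those from the endothelial gene Cldn5 3.57 to 8.60 and 1.51 to 4.85 CPM. These amounts rest on ratios within whole cells. Pooled over mice, Fn1 and Col1a1 stood at 2611 and 10457 CPM in fibroblast-like cells. In droplets of at most 100 UMIs, taken as empty, they stood at 437 and 796 CPM. After 5% of the UMIs were taken away as free RNA in every mouse, the log2 difference was 1.36 (adjusted p = 0.0278, edgeR). Taking the same share everywhere cannot cover free RNA that differs between mice. The part of carried-over or free RNA in the Fn1 difference was not tested.

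The immediate early genes Egr1 and Junb, which respond quickly to stress and to tissue dissociation and were chosen after their values were seen, also rose in the pericyte-like cells. Egr1 lay between 191 and 403 CPM in control and between 501 and 1010 CPM in fibrinogen-depleted mice, and Junb between 332 and 600 and between 685 and 1675 CPM, and both were called (adjusted p = 0.0339 and 0.0349, edgeR). Fos (206 to 693 and 669 to 1648 CPM) and Jun (309 to 558 and 551 to 1179 CPM) overlapped between the groups and were not called. The part of these 4 genes in the Fn1 difference was not tested.

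The remaining members did not pass the test in pericyte-like cells. Acta2 averaged 372 ± 86.9 CPM in control and 544 ± 166 CPM in fibrinogen-depleted mice, with a log2 difference of 0.58 ± 0.20 (adjusted p = 0.265, edgeR). Myl9 was 1137 to 1272 CPM in control and 1004 to 1035 CPM in fibrinogen-depleted mice, so the groups did not overlap although the log2 difference of -0.19 ± 0.10 missed the threshold (adjusted p = 0.571, edgeR). Postn averaged 92.9 ± 14.5 and 112 ± 46.4 CPM, Cthrc1 300 ± 12.9 and 277 ± 58.8 CPM, Fap 142 ± 25.1 and 151 ± 25.3 CPM, and Tagln 226 ± 84.0 and 299 ± 105 CPM, with adjusted p between 0.606 and 0.917 (edgeR). Among all genes tested in these cells 2.45% lay higher and 3.77% lower in every fibrinogen-depleted mouse, beside Fn1 and Myl9 among the members. Lrrc15 was not tested, as it had no UMI.

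In smooth muscle-like cells, of which each mouse gave only 18 to 42, Fn1 was 158, 113, 172 and 67.4 CPM in control and 428, 107, 305 and 321 CPM in fibrinogen-depleted mice. Ancrod replicate 2 lay within the control range and the other 3 above it. The 8 macrophage markers summed to 672, 605, 1483 and 347 CPM in these cells of control mice and to 1893, 846, 2137 and 1579 CPM in those of fibrinogen-depleted mice, and the endothelial markers reached 713 CPM in ancrod replicate 3 against at most 266 CPM in a control mouse. Their part in the Fn1 values was not tested. The log2 difference of 1.20 ± 0.36 did not pass the test (adjusted p = 0.913, edgeR), and it was called only where genes with low counts were kept (1.22, adjusted p = 0.0399, edgeR). Acta2 averaged 11576 ± 1575 and 13107 ± 2709 CPM, Tagln 9305 ± 1473 and 10229 ± 1706 CPM, and Myl9 3706 ± 608 and 3583 ± 661 CPM, each with overlapping groups and an adjusted p above 0.9 (edgeR). None of 5062 genes was called (0%), 258 were below 0.05 before adjustment, and DESeq2 called 0, while Postn, Cthrc1, Fap and Lrrc15 were too low to be tested.

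In endothelial-like cells Fn1 averaged 1462 ± 89.2 CPM in control and 1559 ± 161 CPM in fibrinogen-depleted mice (log2 difference 0.10 ± 0.10, adjusted p = 0.750, edgeR). Acta2 was low there, at 3.62 ± 1.53 and 14.2 ± 13.4 CPM, with ancrod replicates 1 and 4 at 26.6 and 25.0 CPM (log2 difference 1.99 ± 0.74, adjusted p = 0.552, edgeR). In droplets of at most 100 UMIs, taken as empty, Acta2 was 231 CPM in ancrod replicate 4 and 33.5 to 65.4 CPM in the other mice, with ancrod replicate 1 at 54.8 CPM. In microglia-like cells Acta2 was 3.12 CPM in ancrod replicate 4 and 0.432 to 1.29 CPM in the others. The part of free RNA in the endothelial values was not tested. None of 12637 genes was called (0%), 1117 were below 0.05 before adjustment, and DESeq2 called 22.

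In macrophage-like cells Fn1 averaged 120 ± 26.8 and 165 ± 9.58 CPM and lay higher in 4 of 4 fibrinogen-depleted mice than in any control mouse, but the log2 difference of 0.43 ± 0.14 did not pass (adjusted p = 1.00, edgeR). Of all genes tested in these cells 1.23% lay higher and 0.553% lower in every fibrinogen-depleted mouse. None of 11202 was called (0%), 340 were below 0.05 before adjustment, and DESeq2 called 0. Acta2 and Fap were also tested there and had adjusted p = 1.00 (edgeR), and the other members were too low.

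**Figure D4:**
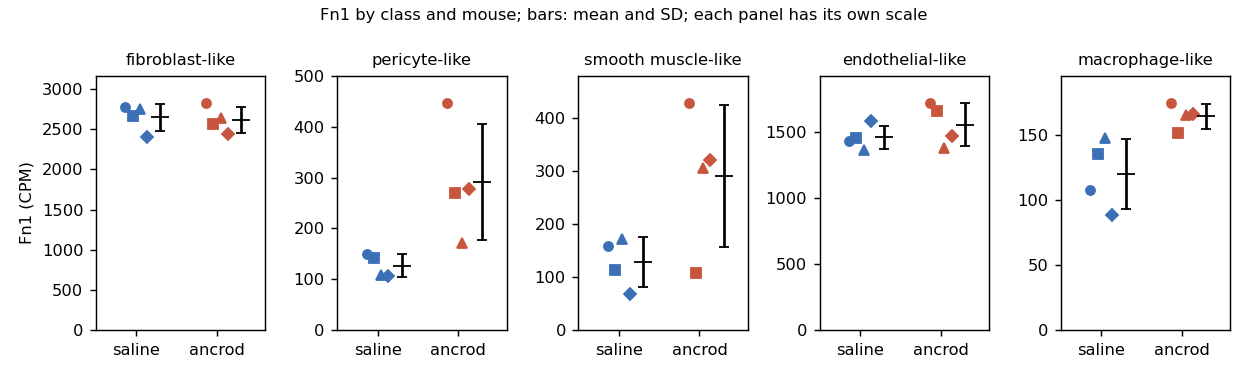
Fn1 CPM in 5 classes, 1 point per mouse and the mean and SD of each group as a bar, with a separate linear axis from 0 in each panel. The 4 fibrinogen-depleted mice lie above the 4 control mice in pericyte-like (171 to 447 against 106 to 149 CPM) and macrophage-like cells (152 to 175 against 88.9 to 148 CPM) and overlap with them in the others.

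Whether the effect of ancrod differed between fibroblast-like and mural-like cells (pericyte-like and smooth muscle-like together) was tested as an interaction with the mouse as a block. The log2 effect on Fn1 was 1.26 ± 0.21 lower in fibroblast-like than in mural-like cells, a difference of -1.26 that did not pass after adjustment (adjusted p = 0.140, edgeR). No gene of 11511 was called (0%), 964 were below 0.05 before adjustment, and DESeq2 called 29 genes including Fn1 (adjusted p = 0.000310, DESeq2). The difference was 1.13 ± 0.48 for Acta2, 1.39 ± 0.65 for Tagln, 0.78 ± 0.30 for Myl9 and -0.76 ± 0.36 for Postn, with adjusted p between 0.524 and 0.612 (edgeR). Lrrc15 could not be fitted, as it was at 0 in the mural-like cells. Smooth muscle-like cells gave 32951 Acta2 and 26557 Tagln UMIs of the mural-like sums, against 3815 and 2219 from pericyte-like cells. For Myl9 the sources were nearly equal, at 9721 and 9475 UMIs. The mural-like values thus also depend on the mix of these classes in each mouse, and its part in the differences was not tested.

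Over all cells of the lesion, the number of cells of a class and the RNA per cell cannot be told apart. Fibroblast-like cells were 4.16%, 3.09%, 0.604% and 4.41% of the cells in control mice and 5.96%, 1.85%, 10.3% and 9.85% in fibrinogen-depleted mice. The means of 3.06% ± 1.74 and 6.99% ± 3.94 (SD, n = 4) differed by 3.92 percentage points, which an exact two-sided permutation test over mice did not separate (p = 0.143, with 0.0286 the smallest value possible). Without ancrod replicate 2 the difference was 5.64 percentage points (exact permutation p = 0.0286, the smallest that 35 arrangements allow). Leaving out any other single mouse gave 2.82 to 4.37 percentage points, with exact permutation p between 0.171 and 0.257. Mural-like cells were 3.69% ± 0.636 and 2.86% ± 0.676 (exact permutation p = 0.143). Among cells of at least 5000 UMIs they were 2.66% and 2.43% (exact permutation p = 0.743). In its methods the paper reports that shares of reactive fibroblasts and macrophages trended higher after ancrod. It proposes easier dissociation after reduced fibrosis as the likely reason. By staining, it reports fewer activated PVFs in the lesion core of fibrinogen-depleted mice 6 days after PT. The shares here describe recovered cells and do not count fibroblasts in the tissue. The part of dissociation was not tested.

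Summed over all recovered cells, 3 members lay higher in every fibrinogen-depleted mouse than in any control mouse, as did 3.82% of all genes tested. Of all genes 4.3% lay lower in each of them. These sums also carry any difference in how many cells of a class were recovered. Acta2 was 64.0, 81.3, 48.6 and 54.0 CPM in control and 100.1, 92.5, 94.5 and 263 CPM in fibrinogen-depleted mice, a log2 difference of 1.11 ± 0.37 (adjusted p = 0.247, edgeR). Ancrod replicate 4 was far above the other mice, and without it the log2 difference was 0.61 (adjusted p = 0.273, edgeR).

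Tagln was 36.1 to 57.0 CPM in control and 67.5 to 158 CPM in fibrinogen-depleted mice (log2 difference 1.01 ± 0.29, adjusted p = 0.222, edgeR), and without ancrod replicate 4 the difference was 0.66 (adjusted p = 0.232, edgeR). Lrrc15 was 0.261 to 1.54 and 2.31 to 13.6 CPM (log2 difference 2.27 ± 0.72, adjusted p = 0.241, edgeR), and without that mouse the difference was 1.33 (adjusted p = 0.395, edgeR). Cthrc1 averaged 58.6 ± 22.3 and 132 ± 63.0 CPM (log2 difference 1.15 ± 0.42, adjusted p = 0.266, edgeR) and Postn 39.2 ± 20.5 and 64.2 ± 36.3 CPM (log2 difference 0.71 ± 0.61, adjusted p = 0.576, edgeR), both with overlapping groups. Fap, Myl9 and Fn1 differed by 0.39, 0.20 and 0.34 on the log2 scale, with adjusted p between 0.325 and 0.574 (edgeR). No gene of 16133 was called (0%), 2596 were below 0.05 before adjustment, and DESeq2 called 662, among them Tagln (adjusted p = 0.0248, DESeq2) and Lrrc15 (adjusted p = 0.0280, DESeq2).

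The share of the contractile transcripts that came from fibroblast-like cells is given per mouse, without a test. Fibroblast-like cells gave 6.63% to 21.8% of the Acta2 UMIs of a control lesion and 44.3% to 77.7% of those of a fibrinogen-depleted lesion. For Tagln the shares were 6.97% to 15.3% and 31.8% to 75.2%, and for Myl9 4.09% to 13.1% and 17.1% to 48.9%. For Postn the shares were 75.3% to 95.5% and 84.5% to 96.6%. Fibroblast-like cells were 3.06% of the sequenced cells on average in control and 6.99% in fibrinogen-depleted mice, and the part of this in the shares was not tested. Their share of all UMIs is larger than their share of cells, as they are the deepest named class. They gave 10952715 of 94776131 UMIs in saline replicate 4 and 6724725 of 95129992 in ancrod replicate 2. The groups thus overlapped in the share of all UMIs from fibroblast-like cells.

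**Figure D5:**
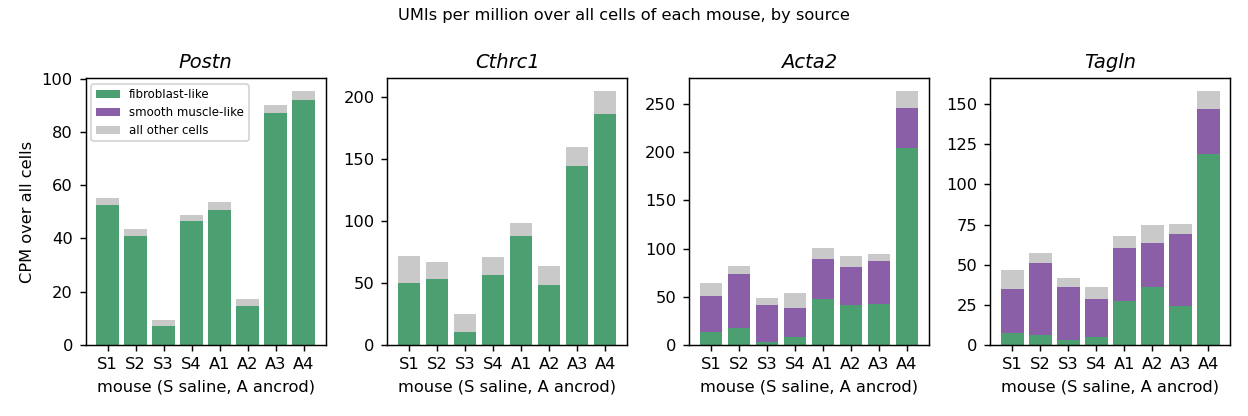
CPM of Postn, Cthrc1, Acta2 and Tagln over all cells of each mouse (S, saline replicates 1 to 4; A, ancrod replicates 1 to 4), stacked by the class that gave the UMIs. Fibroblast-like cells give at least 75.3% of Postn in every mouse, and Postn and Cthrc1 are lowest in saline replicate 3. Fibroblast-like cells give 6.63% to 21.8% of Acta2 in control and 44.3% to 77.7% in fibrinogen-depleted mice, whose libraries held more of these cells on average.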

How the data were processed

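Single cells of the PT lesion of 8 mice (4 saline, 4 ancrod) were analysed. The deposited matrices hold UMI counts per gene and droplet, which the authors made with STAR and Cell Ranger 7.1.0 on GRCm39/mm39, per the labels, without normalization. Droplets with at least 2000 UMIs and under 20% mitochondrial UMIs were kept, and 2144 predicted doublets of 46216 (4.64%) were removed with a caller of the Scrublet type. Cells were clustered on 3000 variable genes without the 8 members (20 components, 20 neighbours, Leiden resolution 2), giving 53 clusters. Clusters were named from 122 marker genes of 18 classes, and 12 stayed unnamed; the limit of 0.5 on the score of a second class was set after the clusters had been seen. Names were rebuilt here and can differ from those of the study. UMIs were summed per mouse and class (at least 10 cells) and tested with edgeR 4.0.16, quasi-likelihood, low counts filtered, Benjamini-Hochberg adjustment over all genes tested. The SE printed with an edgeR log2 difference was worked back from that difference and its test statistic and is not a fitted standard error. DESeq2 1.42.0 was an alternative. Ran with R 4.3.3 and Python 3.11.15. Shares of cells were compared with an exact two-sided permutation test over mice (70 arrangements). The tests recovered known changes in simulated counts. Whether they would find differences as small as those of the members in fibroblast-like and pericyte-like cells was not tested. Barcodes shared by a pair of libraries were at most 0.295% of the smaller one. Depth is given with the results. Separate mice are the replicates.

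Named genes were all members, the 2 highest and 2 lowest of each list in fibroblast-like cells, and the 5 genes most like Postn, Acta2, Cthrc1 and Fn1. Members and lists were chosen with earlier results of these data known. Alternatives covered filters, doublets, batch, clustering, free RNA, a replicate block and leaving out each mouse. The gene called in fibroblast-like cells is not reported here by name.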

Additional observations from a re-analysis of the deposited data

Results flagged for a closer look

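Of 86 groups of 4 mice, 6 held a mouse far from the others, and chance alone marks about 1 in 20 groups. In ancrod replicate 4, Acta2, Tagln and Lrrc15 over all cells stood at 263, 158 and 13.6 CPM, while the other fibrinogen-depleted mice lay at 92.5 to 100.1, 67.5 to 75.6 and 2.31 to 3.67 CPM. In droplets of at most 100 UMIs, taken as empty, the same genes stood at 231, 116 and 8.48 CPM in that mouse and at 33.5 to 65.4, 18.5 to 54.7 and 0 to 1.80 CPM in all others, and the part of this free RNA was not tested. Cthrc1 over all cells was 25.2 CPM in saline replicate 3 against 66.6 to 71.6 CPM in the other control mice; that mouse had 36 fibroblast-like cells. Fap in pericyte-like cells was 113 CPM in ancrod replicate 1 against 161 to 165 CPM. Tagln in macrophage-like cells was 0 CPM in saline replicate 2 against 0.443 to 0.513 CPM.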

How the results depend on the processing

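Counts of called genes moved with the processing, and the cause was not tested. In fibroblast-like cells 1 gene was called, against 165 with DESeq2, 0 in batch 1 alone, 2 with batch as a term and 0 to 61 when a mouse was left out (61 without ancrod replicate 3), and no member was called in any of them. In pericyte-like cells the 33 calls became 84 with DESeq2, 9 with at least 5000 UMIs, 4 with under 10% mitochondrial UMIs, 87 with doublets kept, 131 without a filter on low counts and 3 to 77 when a mouse was left out. Fn1, at 1.25 there, was 1.20 in batch 1 alone, 1.10 with at least 5000 UMIs and 1.24 with under 10% mitochondrial UMIs, each leaving 0 members called; leaving out a mouse gave 0.95 to 1.44 and 0 to 1 members. For the difference between fibroblast-like and mural-like cells, 29 genes were called with DESeq2, 2 with doublets kept and 9 without the filter, 1 member (Fn1) in each, and 0 to 2 genes when a mouse was left out. DESeq2 called 22 genes in endothelial-like cells and 662, with 2 members, over all cells, where keeping doublets gave 2 and leaving out a mouse 0 to 1. Without the filter 10 genes including 1 member were called in smooth muscle-like cells. The fibroblast-like share differed by 2.82 to 5.64 percentage points when a mouse was left out.

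Small differences changed sign. Cthrc1 in endothelial-like cells became -0.0023 without the filter, -0.0038 with the replicate block, -0.0648 in batch 1 alone and -0.0649 with free RNA subtracted, with -0.10 to 0.17 when a mouse was left out. In batch 1 alone, Myl9 and Tagln in endothelial-like cells became -0.14 and -0.0286, Cthrc1 in pericyte-like cells 0.0363, Myl9 in smooth muscle-like cells 0.0278 and Myl9 over all cells -0.0392. Fn1 in fibroblast-like cells became 0.0092 without the filter and 0.0089 with under 10% mitochondrial UMIs, and Fap in pericyte-like cells -0.0054 with at least 5000 UMIs. Leaving out a mouse gave -0.0216 to 0.24 for Myl9 in endothelial-like, -0.0602 to 0.0236 for Fn1 in fibroblast-like, -0.20 to 0.0326 for Cthrc1 and -0.0173 to 0.45 for Postn in pericyte-like, -0.10 to 0.11 for Myl9 in smooth muscle-like and -0.0199 to 0.38 for Acta2 in macrophage-like cells. Of the other single values 754 kept direction and side of the threshold.

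Replicate numbers did not pair the mice: same-numbered mice correlated at -0.0193 to 0.105 in fibroblast-like cells and -0.476 to 0.243 over all cells. With the replicate block, 10 genes were called in fibroblast-like and 100 in pericyte-like cells, where Fn1 was 1.21 (adjusted p = 0.000809, edgeR), and the paired sign-flip test of the fibroblast-like share gave an exact p = 0.25. In all, 2 of 4 saline mice correlated best with their own number in fibroblast-like cells and 1 of 4 over all cells.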
